A study of Mus musculus with 25 samples.

Results

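The replication-dependent histone genes were followed across 4 stages of early mouse development in RNA sequencing libraries from normal and Smarca4-deficient material. They were taken as the genes whose symbol begins with Hist1h, Hist2h, Hist3h or Hist4h, which gave 68 of the 24412 gene symbols in the files. The 68 genes fall into 5 classes by the histone named in their symbol. They are 6 linker histone H1 genes and 18 H2A, 19 H2B, 12 H3 and 13 H4 core histone genes. The 19 H2B genes include the pseudogene Hist3h2bb-ps. The study knocked out Smarca4, the gene of the chromatin remodelling ATPase BRG1, and compared knockout (KO) with wild-type (WT) metaphase II oocytes (MII, 2 KO and 3 WT libraries), pronuclear zygotes (PN3, 4 KO and 4 WT), early 2-cell embryos (E2C, 3 KO and 3 WT) and late 2-cell embryos (L2C, 3 KO and 3 WT). Per the labels' protocols, oocytes destined for sperm injection came from females aged 8 to 12 weeks that were either B6D2F1 hybrids or C57BL/6 mice with Smarca4 flox/flox alleles and Gdf9-Cre, and all were superovulated with 7 IU of PMSG and 5 IU of hCG given 48 h later. Gdf9-Cre acts in the growing oocyte, so the KO is a deletion in the female germ cell. Neither the strain behind a given library nor the genotype of the sperm is stated, so strain and genotype cannot be told apart. Nothing in the labels says that replicates came from separate females, and the p-values below measure only the spread between these libraries.

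Smarca4 had 0.219 and 0.221 scaled FPKM in KO oocytes against 26.0 to 30.5 in WT oocytes, and it stayed lower in every KO library than in any WT library of the same stage, with 21.03 to 22.5 in KO and 48.5 to 90.4 in WT late 2-cell embryos. FPKM count fragments per length of transcript and per mapped fragment of the library, and all levels below were further scaled by each library's median ratio to the others. The labelled stages matched their markers: the 5 oocyte markers (Zp3, Gdf9, Bmp15, Mos, H1foo) summed to at least 2440 in every MII library, and the 4 markers of the 2-cell embryo (Zscan4c, Zscan4d, Zfp352, Tmem92) to at most 4.26 in any MII or PN3 library and to between 29.8 and 170 at E2C and L2C. The cumulus and granulosa list of 9 genes summed to at most 18.0 in any library, with 2 to 5 of the 9 at 0 in every library of a group. The 4 sperm and testis genes (Prm1, Prm2, Tnp1, Tnp2) summed to 19.1 in the second KO library at E2C, with 14.8 from Prm2, and to at most 8.26 in any other library. The part of this signal in the histone values was not tested. Of the 3 blood genes Hbb-bs and Hba-a1 were at 0 in all libraries. The second WT library at E2C stood apart from the others, with 9345 genes above 0 where the other 24 libraries had 13585 to 16698, and the members' counts, medians and class sums that rest on it at E2C are given with and without it. The files hold no read counts, so the sequencing depth behind each value is unknown.

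Replication-dependent histone genes supply the bulk of histones during DNA synthesis. Most have no introns, lie in clusters and give mRNAs that end in a short stem-loop in place of a poly(A) tail, and the stem-loop is bound by SLBP, which takes part in the processing, translation and decay of the mRNA. A fertilised egg starts with histone mRNA and protein stored by the oocyte, and the oocyte linker histone H1foo is replaced by somatic H1 during the first cell cycles. The libraries were made from total RNA depleted of ribosomal RNA, so histone mRNAs with and without a poly(A) tail were measured together.

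The stem-loop that marks these mRNAs is shown for members of each class because it is the feature by which they are recognised. The histone stem-loop consensus was searched on the sense strand of the GENCODE M21 transcripts (GRCm38). It was present in 33 of the 68 members and in 3 of 55273 other genes, and a transcript without a match says only that these letters are not in that model. Capitals mark the stem-loop of 16 bases and 5 bases are given on each side.
Hist1h1d: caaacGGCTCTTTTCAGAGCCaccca
Hist2h2aa1: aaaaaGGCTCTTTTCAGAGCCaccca
Hist1h2bj: ccaaaGGCTCTTTTCAGAGCCacgca
Hist1h3b: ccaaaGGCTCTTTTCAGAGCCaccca
Hist1h4c: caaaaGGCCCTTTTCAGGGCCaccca
Hist4h4: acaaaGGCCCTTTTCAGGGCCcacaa
The 33 members carried 2 versions of it. The version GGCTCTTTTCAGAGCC was found in 26 members, which were those of H1, H2A, H2B and H3, and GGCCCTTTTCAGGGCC in 7 members, which were all H4 genes. Among the 33 the version therefore followed the class without exception. The consensus left only its N positions free to vary, so a member with another form would not be among the 33.

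Promoters are printed for leading genes of 4 classes, because the classes differed in which promoter elements they carried. Each window runs from 250 bases before to 50 bases after the start of the RefSeq gene model (GRCm38.p6), and such windows were found for 62 of the 68 members, in 63 windows. Capitals mark matches on either strand to TATAAA (the TATA box), CCAAT (the CCAAT box) and ATTTGCAT (the octamer bound by POU factors), so a match on the other strand shows as the reverse complement. The windows are Hist1h1a at chr13:23763418-23763717 (plus strand), Hist3h2a at chr11:58954435-58954734 (plus strand), Hist1h2bj at chr13:22042948-22043247 (plus strand), Hist1h4c at chr13:23698409-23698708 (minus strand) and Hist4h4 at chr6:136804382-136804681 (minus strand).
Hist1h1a: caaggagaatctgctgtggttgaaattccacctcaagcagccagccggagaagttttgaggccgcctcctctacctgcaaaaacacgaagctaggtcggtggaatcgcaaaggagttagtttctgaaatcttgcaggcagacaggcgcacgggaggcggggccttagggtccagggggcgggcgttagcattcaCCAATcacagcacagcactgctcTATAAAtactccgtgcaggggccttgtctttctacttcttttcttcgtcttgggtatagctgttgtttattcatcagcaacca
Hist3h2a: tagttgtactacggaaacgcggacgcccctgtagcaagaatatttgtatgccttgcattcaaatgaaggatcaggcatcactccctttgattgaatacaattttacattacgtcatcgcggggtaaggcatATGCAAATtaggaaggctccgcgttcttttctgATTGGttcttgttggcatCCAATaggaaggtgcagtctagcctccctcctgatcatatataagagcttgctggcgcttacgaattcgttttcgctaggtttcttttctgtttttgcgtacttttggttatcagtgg
Hist1h2bj: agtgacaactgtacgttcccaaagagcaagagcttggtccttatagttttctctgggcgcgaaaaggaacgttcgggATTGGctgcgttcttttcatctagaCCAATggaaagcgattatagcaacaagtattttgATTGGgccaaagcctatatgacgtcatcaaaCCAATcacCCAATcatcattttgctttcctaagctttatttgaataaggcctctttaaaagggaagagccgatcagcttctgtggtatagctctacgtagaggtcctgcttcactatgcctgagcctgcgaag
Hist1h4c: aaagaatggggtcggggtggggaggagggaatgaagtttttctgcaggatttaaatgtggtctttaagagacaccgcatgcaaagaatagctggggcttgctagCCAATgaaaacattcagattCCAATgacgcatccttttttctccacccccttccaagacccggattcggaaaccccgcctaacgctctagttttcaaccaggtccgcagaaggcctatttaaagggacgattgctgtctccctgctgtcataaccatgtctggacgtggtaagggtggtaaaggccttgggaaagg
Hist4h4: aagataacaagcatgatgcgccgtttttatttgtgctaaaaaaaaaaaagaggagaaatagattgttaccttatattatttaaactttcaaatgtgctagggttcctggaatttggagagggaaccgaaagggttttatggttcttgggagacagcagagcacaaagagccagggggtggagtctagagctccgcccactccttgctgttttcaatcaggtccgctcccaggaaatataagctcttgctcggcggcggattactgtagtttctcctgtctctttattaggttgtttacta
The CCAAT box was present in 100% of the H1, H2A, H2B and H3 windows but in 25% of the H4 windows (3 of 12), against 37.4% of all 32851 promoter windows. The octamer was found in 7 of 18 H2A and 7 of 17 H2B windows and in no window of H1, H3 or H4, against 1.74% of all windows. The H2A and H2B windows are not independent. In 10 pairs an H2A and an H2B gene that both have windows start within 500 bases of each other in opposite directions, and their windows overlap. Matches that lie between such genes, as the octamer of Hist1h2ae and Hist1h2bg does, are counted in both classes. TATAAA occurred in 55.6% of the members' windows and in 13.6% of all windows. The printed windows follow this pattern in part: Hist3h2a carries the octamer, Hist1h2bj has 5 CCAAT matches, and Hist4h4, the most abundant H4 gene, has no match to any of the 3.

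Summed over all members, histone mRNA in scaled FPKM was lowest in oocytes and highest in late 2-cell embryos in both genotypes. It averaged 1247 ± 52.6 scaled FPKM in KO and 1311 ± 53.0 in WT oocytes (SD), 1916 ± 457 in KO and 2043 ± 386 in WT zygotes, 3143 ± 405 in KO and 4323 ± 1153 in WT early 2-cell embryos, and 5329 ± 492 in KO and 4645 ± 242 in WT late 2-cell embryos. Its share of all FPKM was between 1.76% and 2.47% per library at L2C and between 0.528% and 0.590% at MII. The KO sum was 1.54-fold higher at PN3 than at MII, 1.64-fold higher at E2C than at PN3 and 1.70-fold higher at L2C than at E2C. For the WT sum the same steps were 1.56-fold, 2.12-fold and 1.07-fold, and without the second WT library at E2C the last 2 were 1.79-fold and 1.27-fold. Whether the steps differed in size between the genotypes was not tested on the sums. Libraries of neighbouring stages did not overlap in these sums, except at the last WT step. These are sums over genes chosen with earlier results known, so they carry no p-value. All levels are relative to the other RNAs of the same library, many of which also rose or fell between stages. A higher sum therefore does not show that an embryo held more histone mRNA. In bulk samples, a change in the number of contributing cells and a change in mRNA per cell cannot be told apart.

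**Figure D1:**
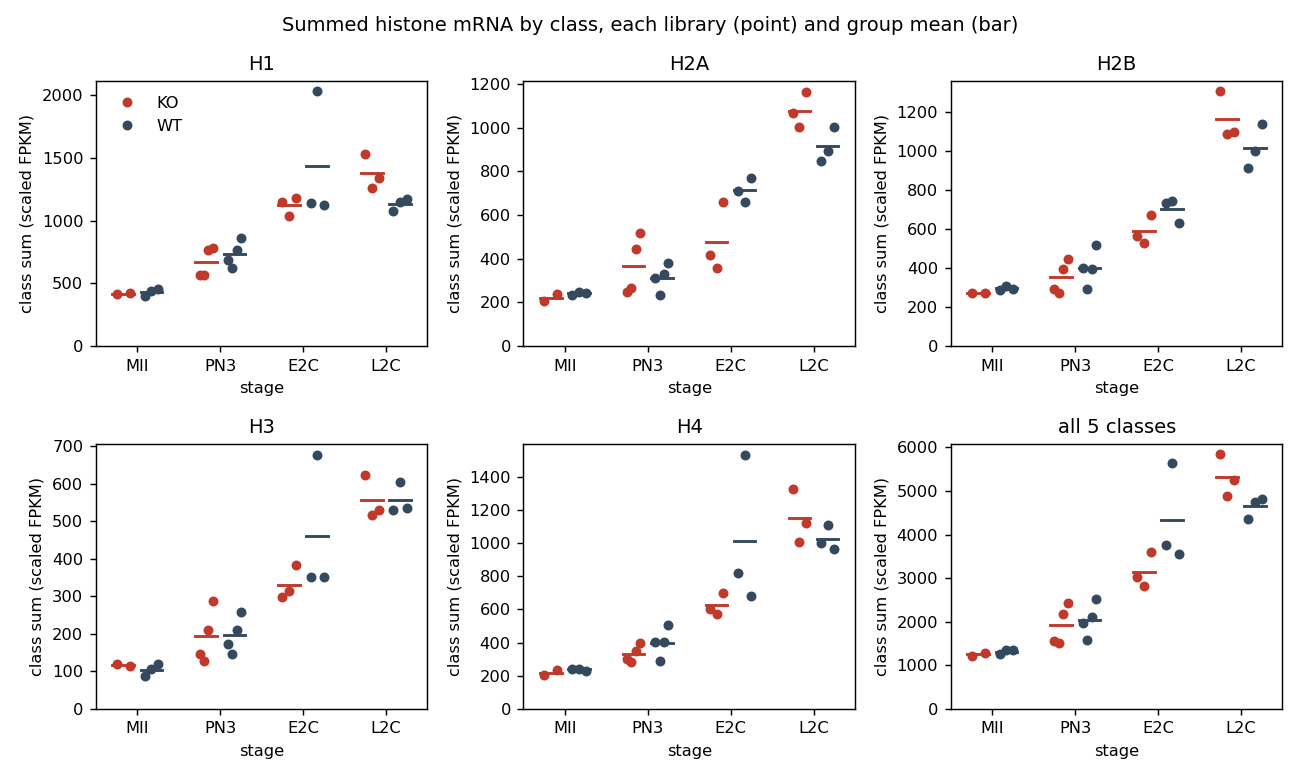
Class sums of the histone genes in each library (points; bars are group means), as scaled FPKM on the vertical axes, by stage on the horizontal axes, with KO in red left of WT in dark blue. All classes were higher at L2C than at MII in both genotypes, and the second WT library at E2C lay far above the others in H1, H3 and H4 (2031, 677 and 1533).

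Of the 68 members, 65 passed the filter for testing (at least 1 FPKM in at least 3 libraries). The 3 that did not were Hist1h4m, listed at 0 in every library, Hist2h2be, which never exceeded 0.429, and Hist1h2bq, which was above 0 in 1 KO library at L2C (5.33). At PN3 relative to MII, 36 of the 65 rose and 3 fell in KO, and 45 rose and 3 fell in WT, by limma at an adjusted p under 0.05 over all 12079 genes tested. Of all genes tested, 17.6% were higher and 23.2% lower at that step in KO (40.8% in either direction), and 19.2% and 26.1% in WT (45.2%). The counts of members at this step moved with the model of the spread: with 1 spread shared by all libraries 3 were called in KO and 14 in WT, and with only the 2 groups compared 25 were called in KO and 46 in WT. At E2C relative to PN3, 19 members rose in KO and 29 in WT and none fell, where 8.87% of all genes were higher and 12.2% lower in KO (21.1% in either direction), and 12.9% and 18.1% in WT (31%). At L2C relative to E2C, 26 rose and none fell in KO, and 17 rose and 1 fell in WT, where 26.8% of all genes were higher and 14% lower in KO (40.8% in either direction), and 34.1% and 18.3% in WT (52.4%). With 1 shared spread the called members numbered 42 in KO and 51 in WT at E2C and 47 in KO and 29 in WT at L2C, and with only the 2 groups compared 29 in KO and 19 in WT at E2C and 46 in KO and 26 in WT at L2C. The shares of all genes called in these alternative fits are not given, at this or the first step. The members' median log2 difference was 0.40 in KO and 0.53 in WT at the first step, 0.86 in KO and 1.15 in WT at the second, and 1.17 in KO and 0.59 in WT at the third. The medians of all genes at the same steps lay between -0.05 and 0.25. Without the second WT library at E2C, 29 members rose and none fell at E2C in WT (median 0.95), and 17 rose and none fell at L2C (median 0.62). Differences are on the log2(scaled FPKM + 1) scale, which understates the change of genes at low levels. Some members, such as Hist1h1b, passed the filter only through 2-cell libraries, where they are high. The counts of rises include them by selection, and the shares of all genes are subject to the same filter.

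In both genotypes 32 members rose at PN3, which is 32 of the 36 KO calls and of the 45 WT calls, 19 rose at E2C (of 19 and 29) and 16 at L2C (of 26 and 17). The share of all genes called in both genotypes is not given, so whether this overlap is particular to the members cannot be said. How many members were called in KO at E2C depended on single libraries. Leaving out the first, the second or the third KO library at E2C left 8, 5 and 5 members called in KO at that step. Without the second KO library at E2C 16 members were called at the KO step to L2C, and without the second WT library at L2C 11 at the WT step. Calls over all genes in these fits are not given, so the losses cannot be set against them. The 3 members that fell at PN3 were Hist1h1t, Hist1h2aa and Hist1h2bc in both genotypes.

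**Figure D2:**
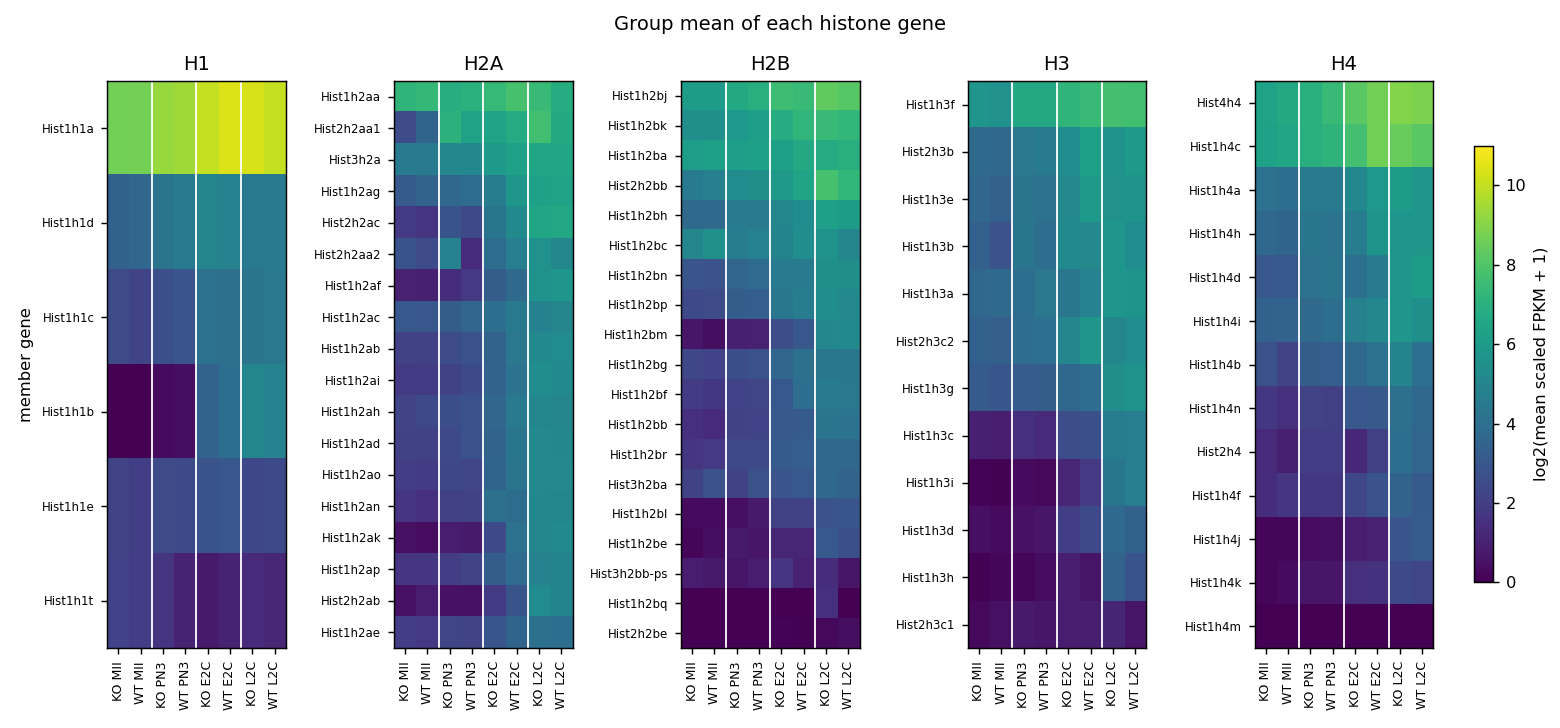
Group means of the 68 members as log2(mean scaled FPKM + 1), in rows by class and in columns by stage with KO left of WT. One or a few genes lead each class, and a set of genes near 0 at MII and PN3, among them Hist1h1b, Hist1h2bm, Hist1h3i and Hist2h2ab, is detected at L2C.

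The H1 class was almost a single mRNA. Hist1h1a, a somatic H1 subtype gene on chromosome 13, made up 93.3% to 95.5% of the H1 sum in every group. It had 394 and 400 scaled FPKM in KO oocytes against 380, 416 and 434 in WT oocytes, and 539, 538, 736 and 744 in KO zygotes against 651, 597, 728 and 820 in WT zygotes. At E2C it had 1066, 974 and 1136 in KO embryos against 1094, 1931 and 1076 in WT embryos, and at L2C 1441, 1191 and 1273 in KO against 1016, 1064 and 1090 in WT. Genotypes overlapped at MII, PN3 and E2C, and at L2C every KO library was above every WT library. Hist1h1a rose at PN3 (log2 difference 0.67 in KO and 0.76 in WT) and again at E2C (0.74 in KO, 0.92 in WT), and at L2C the differences of 0.30 in KO and -0.32 in WT did not pass the test (limma).

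The oocyte linker histone H1foo, which the symbol rule does not include, ran the other way. It had 934 and 902 scaled FPKM in KO oocytes against 846, 911 and 942 in WT oocytes, and by L2C 37.6, 46.1 and 51.7 in KO embryos against 16.8, 23.3 and 49.2 in WT embryos. The ratio of Hist1h1a to H1foo was 0.422 to 0.444 in KO and 0.450 to 0.461 in WT oocytes, 1.45 to 1.91 in KO and 2.05 to 2.47 in WT zygotes, 5.91 to 14.0 in KO and 9.17 to 15.9 in WT early 2-cell embryos, and 24.6 to 38.3 in KO and 22.2 to 60.4 in WT late 2-cell embryos. H1foo fell at PN3 in both genotypes (limma log2 difference -1.28 in KO and -1.55 in WT) and at E2C (-1.74 in KO, -1.37 in WT). At L2C it fell in WT (-2.08, adjusted p = 0.00307, limma), and the KO difference of -1.30 did not pass the test (adjusted p = 0.0640). No genotype difference of H1foo passed the test at any stage.

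**Figure D3:**
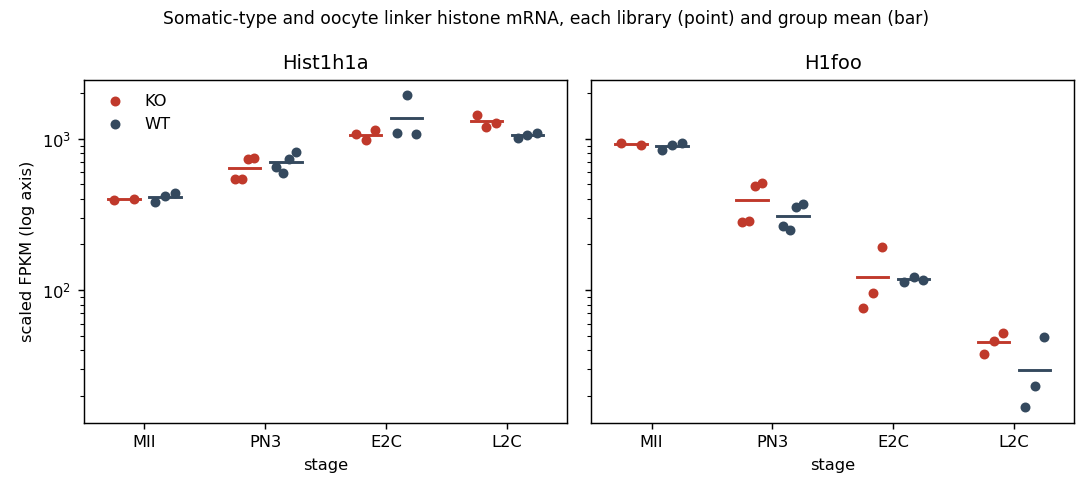
Hist1h1a (left) and H1foo (right) in each library (points; bars are group means) as scaled FPKM on a log axis, by stage, with KO in red left of WT in dark blue. Hist1h1a went up and H1foo went down with stage in both genotypes, so that the mean levels crossed between MII and PN3.

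Among the other H1 genes, Hist1h1b was listed at 0 in all 5 oocyte libraries and was at most 0.559 in zygotes. It rose at E2C to 8.29, 9.40 and 11.9 in KO and 8.84, 25.7 and 9.06 in WT, and again at L2C to 46.3, 25.9 and 23.9 in KO and 25.8, 33.3 and 25.6 in WT. Its appearance was the largest E2C step of the class (log2 difference 3.10 in KO and 3.37 in WT), with no overlap between the stages. Hist1h1b passed the filter for testing only through its E2C and L2C libraries. The test could hardly find anything but a rise, so no p-value is given for this step. Hist1h1d (8.71 to 47.5 over all libraries) rose at PN3 in both genotypes, Hist1h1c rose at PN3 in WT, and Hist1h1e passed the test at no step. Hist1h1t, the testis-type H1, had 3.90 and 3.34 in KO and 2.73 to 3.53 in WT oocytes and fell at PN3 (-0.65 in KO, -1.05 in WT).

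The make-up of the H2A class shifted with stage. In oocytes Hist1h2aa, which encodes the testis-type H2A that oocytes also store, held 65.2% of the H2A sum in KO and 65.9% in WT, and at L2C 15.5% in KO and 12.3% in WT. Its own level moved little by comparison: 129 and 160 scaled FPKM in KO and 155 to 165 in WT oocytes, and 131 to 207 in KO and 105 to 123 in WT late 2-cell embryos. The listed levels of the other members filled in around it: 15 of the 18 H2A genes had a group mean of at least 1 at MII in both genotypes and 18 at L2C, and the number with a mean of at least 10 was 2 in KO and 4 in WT at MII and 18 in both at L2C. Many H2A genes are hard to read apart. A median of 58.9% of the read-length stretches of an H2A transcript also occurred in other members (0% to 100%). The counting of such fragments is not stated, so these counts do not show how many H2A genes were expressed. Hist1h2aa fell at PN3 in both genotypes (limma log2 difference -0.35 in KO and -0.34 in WT), rose at E2C in WT (0.81) and fell at L2C in WT (-0.96), where it was the single member to fall. Without the second WT library at E2C neither of these WT steps passed the test (0.72, adjusted p = 0.0653, and -0.88, adjusted p = 0.0584, limma).

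Hist1h2ag, a core H2A gene of the chromosome 13 cluster, stands for the members that came up late. It had 8.52 and 6.94 scaled FPKM in KO and 9.71, 11.0 and 10.5 in WT oocytes, and at L2C 98.1, 59.5 and 76.3 in KO and 69.9, 101 and 65.6 in WT. At E2C it had 28.2, 18.7 and 26.3 in KO embryos against 53.8, 80.4 and 30.4 in WT embryos, with no overlap. Hist1h2ak and Hist2h2ab, near 0 in oocytes and zygotes (at most 1.08), reached 30.9 to 35.2 and 31.1 to 44.5 in KO and 34.2 to 39.5 and 18.2 to 44.3 in WT at L2C. At E2C, 11 of the 18 H2A genes rose in KO (median log2 difference 1.05) and 15 in WT (1.67), and at L2C 13 rose in KO (1.61) and 7 in WT (0.93), by limma. The WT values were 15 (1.59) and 8 (0.95) when the second WT library at E2C was left out. Whether these counts differ between genotypes was tested only gene by gene, as given below. The limit above on reading H2A genes apart holds for these counts too. Hist3h2a, an H2A gene apart from the main cluster on chromosome 11, was the second-highest H2A gene in oocytes (22.4 and 23.7 in KO, 21.8 to 22.6 in WT) and rose at PN3 and E2C in both genotypes.

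Hist2h2aa1 and Hist2h2aa2 lie on chromosome 3 and can be read apart only in a small part of Hist2h2aa1. All windows of 150 bases, the read length, in the Hist2h2aa2 transcript also occur in Hist2h2aa1 (100%), and 86.7% of the Hist2h2aa1 windows occur in Hist2h2aa2. The labels do not say how such fragments were counted. The pair was the least steady item in the H2A sum. Hist2h2aa1 had 6.90 and 2.52 scaled FPKM in KO and 3.92, 10.7 and 17.1 in WT oocytes, and 50.8, 64.0, 147 and 268 in KO and 87.9, 54.7, 77.6 and 99.0 in WT zygotes, with no overlap between the stages. At E2C it had 28.3, 10.8 and 205 in KO against 8.62, 19.4 and 296 in WT, and at L2C 17.1, 225 and 362 in KO against 21.7, 11.5 and 271 in WT. The high values at E2C were in the third library of each genotype, which also had the most of the ribosomal precursor Rn45s (10915 in KO and 7357 in WT, where the other 4 E2C libraries had 812 to 2595). At L2C they were in replicates 2 and 3 of KO and replicate 3 of WT, which had 16267, 16455 and 16404 genes above 0, against 13585 in the other KO and 14407 and 13638 in the other WT libraries. The part of these library properties in the result was not tested.

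Hist2h2aa1 rose at PN3 by a log2 difference of 4.35 in KO (adjusted p = 2.89e-05, limma) and of 2.96 in WT (adjusted p = 0.000463, limma), the largest step of any member between these stages. Without this pair, the H2A sum was 0.986-fold in KO and 1.02-fold in WT at PN3 relative to MII, where with it the sums were 1.66-fold and 1.29-fold. The later H2A steps did not depend on it in direction: without the pair, E2C over PN3 was 1.84-fold in KO and 2.51-fold in WT, and L2C over E2C 2.18-fold in KO and 1.35-fold in WT.

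**Figure D4:**
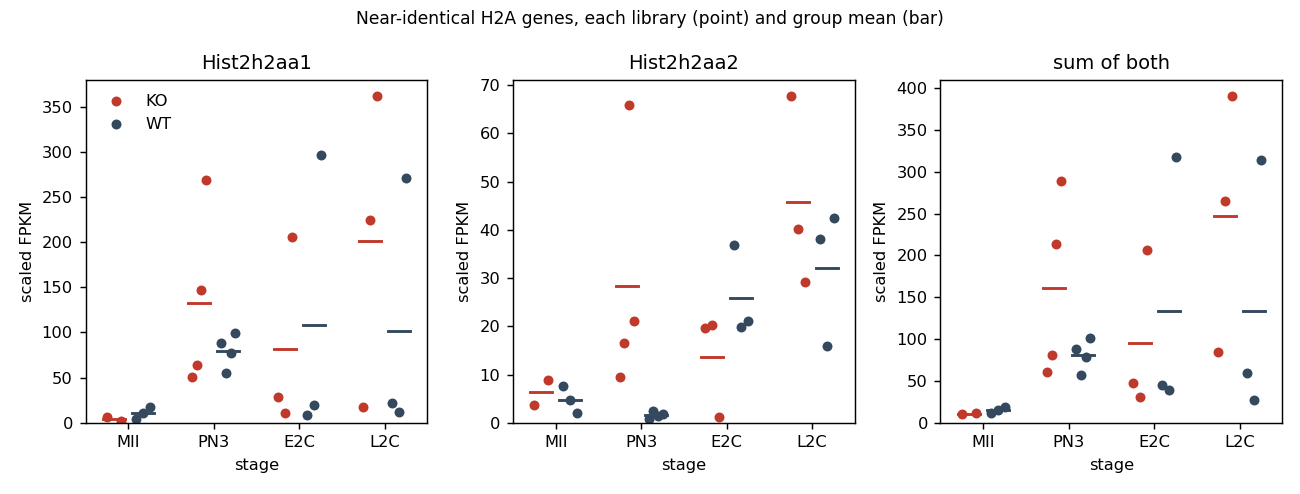
Hist2h2aa1, Hist2h2aa2 and their sum in each library (points; bars are group means) as scaled FPKM, by stage, with KO in red left of WT in dark blue. At E2C the third library of each genotype stands at a sum of 206 in KO and 317 in WT, far above the others of its group, and the sum of both overlaps between genotypes at every stage but MII.

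The H2B sum had 271 and 274 scaled FPKM in KO oocytes against 289, 308 and 294 in WT oocytes, and 1309, 1088 and 1100 in KO against 913, 1001 and 1139 in WT late 2-cell embryos. Hist1h2bj led from PN3 on, with 25.1% to 31.9% of the sum in those groups. It had 68.5 and 63.9 scaled FPKM in KO and 65.8, 62.9 and 70.5 in WT oocytes, and 434, 272 and 258 in KO and 235, 338 and 274 in WT late 2-cell embryos, so the genotypes overlapped at both ends. Hist1h2ba, the testis-type H2B that oocytes also store, led in oocytes with 25.4% in KO and 24.8% in WT, and none of its stage steps passed the test (53.1 to 117 in KO and 48.2 to 150 in WT over all stages). At PN3, 9 of 17 tested H2B genes rose in KO and 12 in WT, at E2C 4 in KO and 5 in WT, and at L2C 4 in KO and 3 in WT. The WT counts were 7 at E2C and 1 at L2C when the second WT library at E2C was left out. Hist1h2bk had 43.4 and 45.0 in KO and 41.8 to 46.3 in WT oocytes and 161 to 197 in KO and 136 to 165 in WT late 2-cell embryos, and it rose at PN3 and E2C in both genotypes. Hist1h2bm was a late gene, with at most 1.70 in oocytes and zygotes and 36.8, 26.6 and 35.2 in KO and 36.6, 28.8 and 45.3 in WT late 2-cell embryos.

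Hist1h2bc was the 1 tested H2B gene that fell at PN3. It had 28.2 and 34.0 scaled FPKM in KO oocytes against 50.1, 46.2 and 37.2 in WT oocytes, and 22.2, 21.2, 24.7 and 25.7 in KO against 28.9, 24.4, 28.2 and 30.8 in WT zygotes. It fell at PN3 by a log2 difference of 0.39 in KO and 0.64 in WT (limma). Hist2h2bb had 20.1 and 24.1 in KO and 26.2 to 26.7 in WT oocytes and 167, 247 and 256 in KO against 114, 89.1 and 265 in WT late 2-cell embryos, and the L2C step passed the test in KO (log2 difference 1.98) and not in WT (0.77). The difference between those steps was not called (1.21, adjusted p = 0.546, limma).

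The H3 class had the lowest mean sum of the 5 in every group, with 118 and 114 scaled FPKM in KO and 87.9, 106 and 119 in WT oocytes and 622, 517 and 531 in KO and 529, 604 and 535 in WT late 2-cell embryos. Hist1h3f led it throughout with 36.8% to 50.4%. Its levels were 53.6 and 49.6 in KO and 41.8, 44.9 and 52.2 in WT oocytes and 235, 194 and 211 in KO and 174, 244 and 197 in WT late 2-cell embryos. Hist1h3f rose at PN3 in both genotypes (log2 difference 0.83 in KO, 1.04 in WT, limma) and its later steps did not pass the test. The cluster on chromosome 3 contributed Hist2h3b and Hist2h3c2, which share 73.7% of the 150-base windows of Hist2h3b, so their levels are uncertain one by one. Both rose at E2C in WT, with log2 differences of 1.71 and 1.77, and neither passed the test in KO, nor in WT without the second WT library at E2C (adjusted p = 0.0546 and 0.0825, limma). Hist1h3b and Hist1h3e had 9.46 to 12.5 in KO and 4.89 to 11.1 in WT oocytes, both rose at PN3 in WT, and neither passed a later step. Hist1h3h and Hist1h3i were at most 0.825 in every oocyte and zygote library and had 6.97 to 13.4 and 11.5 to 26.8 in KO and 4.41 to 9.62 and 18.3 to 32.6 in WT late 2-cell embryos, where both rose in both genotypes. Both passed the filter only through 2-cell libraries, so the filter itself favoured a rise.

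In the H4 class, Hist4h4, a lone gene on chromosome 6, and Hist1h4c on chromosome 13 together made 72.9% to 80.2% of the sum in every group. Hist4h4 had 73.0 and 91.9 scaled FPKM in KO oocytes against 102, 105 and 85.3 in WT oocytes, and 125, 125, 111 and 140 in KO zygotes against 180, 139, 158 and 196 in WT zygotes. At E2C it had 260, 259 and 340 in KO against 458, 443 and 319 in WT, and at L2C 593, 409 and 486 in KO against 453, 484 and 432 in WT. Only 1 KO zygote library (140) was above the lowest WT one (139), and the genotypes overlapped at the other stages too. Hist1h4c had 217, 199 and 214 in KO at E2C against 235, 757 and 223 in WT, where the library of 757 is the one that stands apart. Hist4h4 rose at PN3 (log2 difference 0.60 in KO, 0.77 in WT) and at E2C (1.18 and 1.26) in both genotypes, and Hist1h4c rose at PN3 in both and at E2C in WT (1.31), with 0.82 in KO not passing the test (limma). That WT step of Hist1h4c was 0.74 without the second WT library and did not pass (adjusted p = 0.125, limma). Hist1h4a and Hist1h4h, next in level, had 11.4 to 17.4 in KO and 9.28 to 15.7 in WT oocytes and 48.3 to 68.7 in KO and 51.0 to 61.2 in WT late 2-cell embryos. Hist2h4 came up late, with 0.494 to 4.37 in KO and 0 to 6.01 in WT up to E2C and 11.3 to 18.7 in KO and 8.93 to 13.5 in WT at L2C.

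Between genotypes few members were called. In oocytes, 1 member was higher and 3 were lower in KO by limma at an adjusted p under 0.05, where 5.99% of all genes were higher and 6.99% lower, so the members' share of 4 of 65 was below that of all genes (13% in either direction). Hist1h2bc was lower in KO (log2 difference -0.50 ± 0.10 SE, adjusted p = 0.00226), with both KO libraries below all 3 WT libraries. Hist3h2ba, an H2B gene on chromosome 11, had 3.68 and 3.38 scaled FPKM in KO against 5.91, 7.49 and 4.66 in WT (log2 difference -0.61, adjusted p = 0.00958, limma). Hist1h2ag, with the values given above, was lower in KO by 0.39 (adjusted p = 0.0366), and Hist1h3b was higher with 9.46 and 9.57 in KO against 5.40, 4.89 and 8.06 in WT (log2 difference 0.59, adjusted p = 0.0473, limma). The libraries of the genotypes did not overlap in any of the 4. Over all tested members they lay apart in 7 with KO above and 11 with KO below, where 19.6% of all genes were above and 20.8% below. Leaving out the first or the second WT oocyte library left 2 and 1 members called. None of the 4 was called when only the MII libraries were fitted (adjusted p between 0.0814 and 0.121) or with 1 spread shared by all libraries (adjusted p = 1, limma). Of 12 alternatives, Hist1h2bc and Hist3h2ba were each called in 9, Hist1h2ag in 5 and Hist1h3b in 4.

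**Figure D5:**
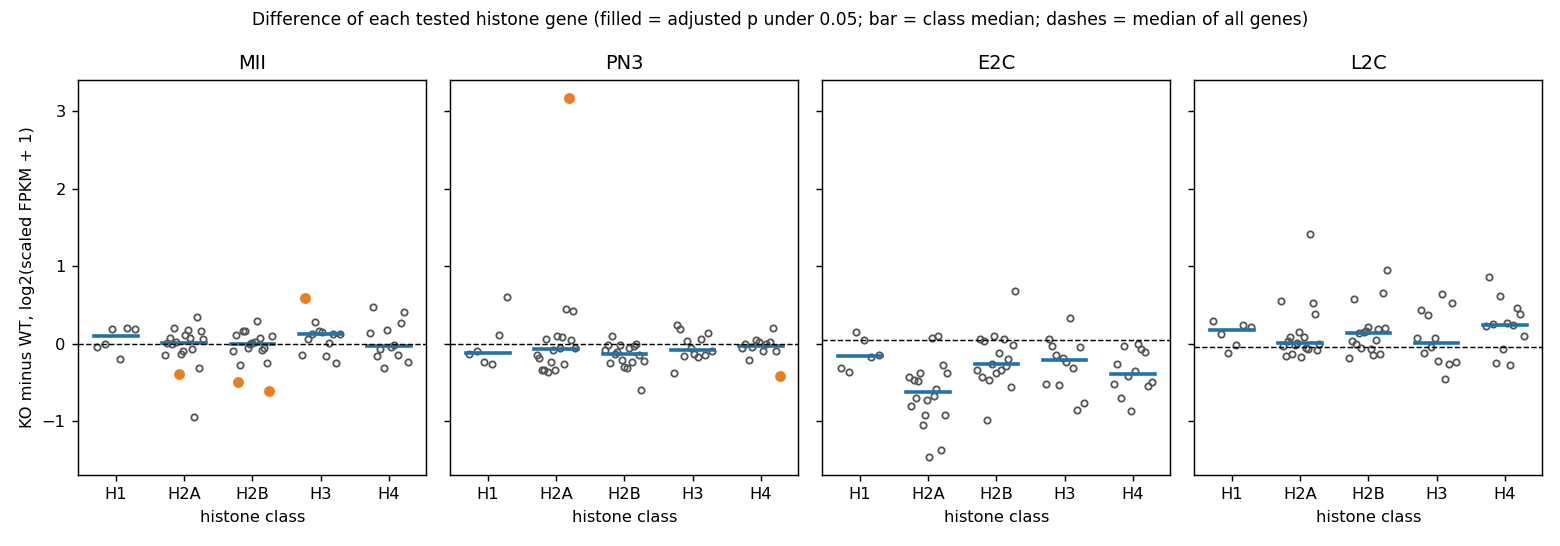
Difference of each tested member between KO and WT, as log2(scaled FPKM + 1), by class and stage. Open grey points did not pass the test, filled orange points did, blue bars are class medians and the dashed line is the median of all genes. At E2C 54 of 65 points lie below 0, against 49 when the second WT library is left out (not drawn), and no point is filled at E2C or L2C.

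In zygotes 1 member was higher and 1 lower in KO, where 1.78% of all genes were higher and 1.27% lower (3.05% in either direction). All KO libraries were above all WT libraries in 1 member and below in none, where 5.09% of all genes were above and 5.11% below. Of the 65 tested members 46 had a difference below 0 and 19 above, with 16 of the 17 H2B genes below. The median log2 difference was -0.08, where that of all genes was 0.00. An unadjusted p under 0.05 was found in 13 members (limma). Shares of all genes at an unadjusted p are not given here or below, so such counts cannot be set against them. Hist2h2aa2 had 9.58, 16.6, 65.9 and 21.02 scaled FPKM in KO against 0.765, 2.49, 1.38 and 1.81 in WT, without overlap (log2 difference 3.18 ± 0.51 SE, adjusted p = 0.00193, limma). Summed with its near-identical partner Hist2h2aa1, the values were 60.3, 80.6, 213 and 289 in KO against 88.6, 57.2, 79.0 and 101 in WT, which overlapped, so the difference of Hist2h2aa2 alone is uncertain. Hist4h4 was lower in KO by 0.42 (adjusted p = 0.0355, limma), and in the fit of the PN3 libraries alone its adjusted p was 0.110. It was called in 6 of 15 alternatives. A fit with a block for the replicate number called 11 members at PN3, 2 higher and 9 lower in KO. The share of all genes in that fit is not given, and the labels do not say that replicate numbers pair the libraries. The oocyte marker list summed to 1026 to 1473 in KO and 904 to 1099 in WT zygotes, and its part in the histone values was not tested. The class sums overlapped between genotypes in all 5 classes at PN3, with KO over WT between 0.831-fold for H4 and 1.18-fold for H2A. Without Hist2h2aa1 and Hist2h2aa2 the H2A ratio was 0.897-fold, so its direction rested on this pair.

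In early 2-cell embryos no member passed the test in either direction, where 0% of all genes were called higher and 0.00828% lower in KO. With 1 spread shared by all libraries in place of a spread per stage, 4 members were called lower and none higher, and with limma on the E2C libraries alone none was. The share of all genes called with 1 shared spread is not given, so these 4 cannot be set against it. At an unadjusted p under 0.05 there were 2 members in the first fit, Hist1h2ak with 2.23, 5.22 and 5.72 scaled FPKM in KO against 7.79, 33.4 and 8.29 in WT, and Hist1h2ag. Without the share of all genes at that level, these 2 are not read as a difference. Of the 65 tested members 54 had a lower mean in KO and 11 a higher one, with a median log2 difference of -0.34, where the median of all genes was 0.05. Without the second WT library 49 had a lower mean in KO and 16 a higher one, with a median of -0.36, where that of all genes was -0.01. By class the medians were -0.63 for H2A, -0.27 for H2B and -0.21 for H3, and without that library -0.71, -0.25 and -0.26. For H1 and H4 they were -0.16 and -0.39 with it and 0.04 and -0.08 without it. All 12 tested H4 genes were lower in KO with that library in the fit, and 7 of the 12 without it. In 8 members (Hist1h2ab, Hist1h2ad, Hist1h2ag, Hist1h2ai, Hist1h2ak, Hist2h2ac, Hist1h2bf and Hist1h4c) all KO libraries were below all WT libraries, and in none were they above, where 4.38% of all genes were below and 5.36% above. Without the second WT library 14 members were below and 2 above, where 10.4% of all genes were below and 8.2% above. These members share fragments and libraries and are not independent of each other.

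The H2A sum at E2C was 416, 356 and 658 scaled FPKM in KO against 711, 662 and 769 in WT. All KO libraries were below all WT libraries, by a small margin for the third KO library, and the ratio of means was 0.668-fold, or 0.644-fold without the second WT library and 0.658-fold without the pair Hist2h2aa1 and Hist2h2aa2. Without Hist1h2aa, the testis-type and highest member, it was 0.635-fold and the genotypes overlapped, with 235, 222 and 479 in KO against 473, 414 and 589 in WT. For the other classes the ratio was closer to 1 without the second WT library, with 0.989-fold without it and 0.783-fold with it for H1, 0.943-fold and 0.720-fold for H3, 0.830-fold and 0.616-fold for H4, and 0.864-fold and 0.838-fold for H2B. Over all members it was 0.859-fold without that library and 0.727-fold with it. No member was called without it either, with 7 at an unadjusted p under 0.05, and none without replicate 3 of both genotypes. The share of all genes at that unadjusted level is not given. The 2-cell embryo marker list at E2C summed to 29.8 to 89.4 in KO and 99.9 to 169 in WT, without overlap, and its part in the histone values was not tested.

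In late 2-cell embryos no member passed the test, where 0.447% of all genes were higher and 0.323% lower in KO (0.77% in either direction), and 1 member, Hist3h2bb-ps, a pseudogene with 1.83, 1.30 and 1.98 scaled FPKM in KO against 0, 0 and 1.70 in WT, had an unadjusted p under 0.05 (limma). The members' median log2 difference was 0.08 against -0.05 for all genes. The sum over all members was 5853, 4876 and 5258 in KO and 4367, 4752 and 4814 in WT, so that every KO library was above every WT library (1.15-fold), by a small margin. Without Hist1h1a, or without the pair Hist2h2aa1 and Hist2h2aa2, this sum overlapped between the genotypes. In the H1 sum every KO library was also above every WT library, with 1530, 1261 and 1343 in KO against 1078, 1147 and 1170 in WT (1.22-fold). Without Hist1h1a the remaining H1 genes stood at 1.02-fold with overlap. The sums of H2A, H2B, H3 and H4 overlapped at L2C, between 1.001-fold for H3 and 1.18-fold for H2A. In 4 members (Hist1h1a, Hist1h2aa, Hist1h3b and Hist1h4b) all KO libraries were above all WT libraries and in none below, where 8.76% of all genes were above and 11.4% below.

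Whether the KO effect changed from stage to stage was tested as a difference of differences. From MII to PN3 only Hist2h2aa2 was called (2.83, adjusted p = 0.0308, limma), where 1.39% of all genes were higher and 0.902% lower (2.29% in either direction). From PN3 to E2C none was called (2 at an unadjusted p under 0.05), where 0% of all genes were. From E2C to L2C none was called (1 at an unadjusted p under 0.05), where 0.00828% of all genes were. In that last comparison 56 of the 65 members had a more positive KO effect at L2C than at E2C, all 18 H2A genes among them, with a median of 0.52 over members and -0.09 over all genes. Leaving out the second WT library at E2C gave 57 of 65, again with all 18 H2A genes, and medians of 0.47 and -0.02. The members share their libraries, so these counts are not independent of each other.

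Genes that make or clear histone mRNA were examined as a separate list of 28, of which 27 were in the files and tested. In oocytes 2 were higher and 2 lower in KO, where 13% of all genes were called in either direction, with a median log2 difference of 0.00 in the list and over all genes. Slbp, the stem-loop binding protein, had 253 and 253 scaled FPKM in KO oocytes against 319, 309 and 331 in WT oocytes (log2 difference -0.34 ± 0.07 SE, adjusted p = 0.00133, limma). It was called in 11 of 12 alternatives, among them the fit of the MII libraries alone (adjusted p = 0.0285, limma), and no KO library overlapped a WT one. Cpsf2, a subunit of the cleavage machinery, was lower too (-0.19), while Sympk, its scaffold (0.28), and Upf1, a helicase of histone mRNA decay (0.30), were higher. These 3 calls were less steady, with Sympk called in 9, Upf1 in 7 and Cpsf2 in 4 of the 12 alternatives. In zygotes Eri1, a nuclease that trims histone mRNA ends, was higher in KO (0.34, adjusted p = 0.0293, and 0.168 with the PN3 libraries alone, limma), in 7 of 15 alternatives, and no other was called, and at E2C and L2C none was. Slbp itself had 122, 167 and 180 in KO and 92.0, 97.9 and 155 in WT late 2-cell embryos, and it fell at L2C in both genotypes (-1.60 in KO, -2.03 in WT).

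Over the stages, 3 of the 27 genes rose and 7 fell at PN3 in KO and 4 rose and 7 fell in WT, where 17.6% of all genes were higher and 23.2% lower in KO and 19.2% and 26.1% in WT. At E2C 3 rose and 2 fell in KO and 6 rose and 5 fell in WT, where 8.87% of all genes were higher and 12.2% lower in KO and 12.9% and 18.1% in WT. At L2C 9 rose and 2 fell in KO and 11 rose and 2 fell in WT, where 26.8% of all genes were higher and 14% lower in KO and 34.1% and 18.3% in WT. The list's counts were not tested against those shares. Npat, the coactivator of histone gene transcription, had 2.59 and 2.66 scaled FPKM in KO and 2.81 to 3.41 in WT oocytes and 12.2, 15.7 and 15.8 in KO and 14.1, 11.3 and 19.6 in WT late 2-cell embryos, and rose at L2C in both (log2 difference 1.74 in KO, 1.32 in WT). Casp8ap2, which acts with it, rose at L2C in KO (0.67). Lsm10, a protein of the U7 particle that processes histone mRNA, fell at PN3 in both genotypes (-2.19 in KO, -1.80 in WT), and its partner Lsm11 passed the test at no step. Zfp473, which is tied to the U7 particle in human cells, fell at PN3 in both (-0.71 in KO, -0.39 in WT).

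Of 26 histone chaperones and related factors, 1 was higher and 4 lower in KO oocytes, where 5.99% of all genes were higher and 6.99% lower, and none was called at PN3, E2C or L2C, with median log2 differences between -0.01 and 0.02 over the 4 stages. Nap1l4, an H2A-H2B chaperone, had 78.7 and 84.6 scaled FPKM in KO against 99.0, 99.5 and 97.0 in WT oocytes (log2 difference -0.27, adjusted p = 0.000159, limma). Set (-0.34), Hat1, which acetylates new H4 (-0.31), and Npm2, the oocyte nucleoplasmin (-0.17), were also lower, and Rbbp4, a subunit shared by several chromatin complexes, was higher (0.17). Of 12 alternatives Nap1l4 was called in 11, Set in 10, Npm2 in 5, Rbbp4 in 4 and Hat1 in 3. With 1 spread shared by all libraries none of the calls of either list in oocytes was made (adjusted p = 1, limma), where 1 of all 12079 genes was called. Set rose at L2C in both genotypes by 3.55 in KO and 3.68 in WT. It then had 74.2, 92.6 and 84.8 in KO against 164, 121 and 128 in WT, without overlap, and that difference of -0.70 did not pass the test (adjusted p = 0.124, limma).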

How the data were processed

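Total RNA depleted of ribosomal RNA was sequenced as stranded paired 150-base reads, per the labels' protocols. The authors deposited FPKM per gene and library. The tools listed in the submitters' processing notes, without their roles, are HISAT2, HTSeq, StringTie and Trim Galore 0.4.5, and mm10 and GRCm38 are listed as builds. The treatment of fragments shared by near-identical genes is not stated, so class sums are reported beside single genes.

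FPKM were scaled by median ratios over 6492 genes with at least 1 FPKM in all 25 libraries and analysed as log2(scaled FPKM + 1). Genes with at least 1 FPKM in at least 3 libraries were tested (12079 of 24412). limma 3.58.1 (R 4.3.3) fitted 8 group means with a weight per stage and trended, robust variance moderation, with Benjamini-Hochberg adjustment over all genes tested and 17 residual degrees of freedom. The method was tested on simulated data, where false calls were near their nominal rate when the spread differed between stages by a common factor and above it when each gene had its own spread per stage. Sums and figures used Python 3.11.15, numpy 2.4.6, pandas 2.3.3 and matplotlib 3.10.9. No 2 libraries held identical values.

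The members, gene lists and tests were chosen with earlier results of these data known. Named genes are the 4 highest members of each class, members called between KO and WT, H1 and testis-type members, the 2 members per class with the largest PN3 to E2C change in WT, and the 6 genes of the 2 context lists with the lowest adjusted p. Hist1h3h, Hist1h3i, Hist2h2ab, Hist2h4, Hist3h2bb-ps, Cpsf2, Eri1, Hat1, Npm2 and the members listed as not overlapping between genotypes were named after their values were seen. Alternatives were the deposited FPKM, TPM, pseudocount 0.1, no filter, 1 shared spread, only the groups compared, a replicate block, leaving out each library, and class sums without single members. Leaving out Hist2h2aa1 and Hist2h2aa2, or the third E2C library of both genotypes, was chosen after seeing the data.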

Additional observations from a re-analysis of the deposited data

Results flagged for a closer look

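Hist1h2aa in the third KO library at PN3 had 128 scaled FPKM, far from the other 3 libraries of its group, which had 107 to 109. Rbbp4 in the third WT library at PN3 had 14.7 scaled FPKM, where the other 3 had 12.91 to 12.98. Both were found among 94 groups of 4 libraries examined for a library far from the others, with 2 found, where chance gives about 1 in 20. The KO effect on Hist2h2aa2 differed between stages, by 2.83 on the log2 scale at PN3 relative to MII (adjusted p = 0.0308, limma interaction term), and with only the 4 groups concerned in the fit the adjusted p was 0.104. All 4 KO zygote libraries were above all 4 WT zygote libraries for this gene, while its sum with the near-identical Hist2h2aa1 overlapped.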

How the results depend on the processing

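The class sum ratios moved by less than the spread of the libraries in 288 of 300 other alternatives and in all 320 that left out 1 library. Leaving out 1 of 2 to 4 libraries shifts a group mean by less than that spread, so the 320 could hardly come out otherwise. They do not show that the ratios are steady. KO against WT at E2C went from 0.783-fold to 0.989-fold for H1 without the second WT library. The direction of the ratio changed in 10 of the 300 and 10 of the 320. These were ratios near 1 (H3 at PN3 and L2C between genotypes, H4 at the last WT step) or ratios resting on a few members or 1 library: H2A between genotypes at PN3 (log2 0.24, and -0.16 without Hist2h2aa1 and Hist2h2aa2), H2A at the first KO step, H1 at the last WT step and between genotypes at E2C (-0.35, and 0.0020 as a ratio of medians), and H1 in oocytes (-0.04, and 0.06 without Hist1h1a). No named gene that was called changed direction in any alternative. The exceptions were, as log2 ratios, H2B in KO against WT oocytes with FPKM as deposited (-0.17), and H1 without Hist1h1a at L2C in KO against WT (0.022), at E2C against PN3 in KO (1.07) and at L2C against E2C in WT (0.17). H2A at PN3 against MII was 1.73 in KO and 1.17 in WT without the testis-type or without the highest member, and -0.021 in KO and 0.033 in WT without Hist2h2aa1 and Hist2h2aa2, and at L2C against E2C in WT it was 0.71 without the testis-type or the highest member.

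Counts of members called depended on how the spread was modelled, and the cause was not tested. Calls over all genes in the alternative fits of this section are not given, so the counts cannot be set against them. With 1 spread shared by all libraries, the KO and WT comparison gave 0 called members in oocytes, 1 in zygotes, 4 in early and 1 in late 2-cell embryos, the stage steps gave 3, 42 and 47 in KO and 14, 51 and 29 in WT, and the differences of KO effect gave 0 for PN3 against MII and 2 for L2C against E2C. With only the groups compared, 0 were called at MII, 1 at PN3, 25, 29 and 46 at the KO steps, 19 at the WT step E2C against PN3 and 0 for the PN3 against MII difference. Without the filter 1 was called at PN3. With a pseudocount of 0.1 the KO steps E2C against PN3 and L2C against E2C gave 11 and 13, and TPM gave 12 for the first of these. The replicate numbers were not taken to pair the libraries, because at no stage did every KO and WT pair of the same number correlate above 0.1 in its deviations from the group means (-0.184 to 0.428 over 12 pairs). At PN3 3 of 4 pairs did (0.116, 0.372 and 0.428, the other at 0.013), and 5 of 8 libraries correlated best with their own number, which at E2C all 6 did. Between successive stages within a genotype the same numbers gave -0.098 to 0.163. The fit with the replicate block called 11 members at PN3 (2 higher and 9 lower in KO), 22 and 34 at the KO steps PN3 against MII and E2C against PN3, 47 at the WT step E2C against PN3 and 0 for the PN3 against MII difference.

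Leaving out 1 library at a time, the called members numbered 1 to 5 at MII, 1 to 7 at PN3, 0 at E2C and 0 to 1 at L2C (1 without the third WT library) between KO and WT. At PN3 the count was 7 without the second WT library and 1 without any one of 5 others, and at MII it was 2 and 1 without the first and the second WT library. They numbered 26 to 39, 5 to 23 and 16 to 21 at the successive KO steps, with 8, 5 and 5 without the first, the second or the third KO library at E2C for the second step and 16 without the second for the last, and 37 to 49, 22 to 37 and 11 to 18 at the WT steps, with 11 without the second WT library at L2C. The PN3 against MII difference gave 0 to 1, with 0 in 7 of these fits, and the other differences gave 0. Depth is unknown, which limits what can be said of genes near 0.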

Other observations

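By genomic cluster, the Hist1 cluster on chromosome 13 (54 members) supplied 86.4% of histone mRNA in KO and 85.2% in WT oocytes, and 75.6% in KO and 76.7% in WT late 2-cell embryos. The Hist2 cluster on chromosome 3 (10 members) supplied 4.84% in KO and 5.10% in WT oocytes, and 13.2% in KO and 11.3% in WT late 2-cell embryos. There were 10 pairs of an H2A and an H2B gene that start within 500 bases of each other in opposite directions. Only genes with a promoter window were paired. The H2B gene had the higher mean over the 25 libraries in 5 of the 10. In the pair of Hist1h2ag and Hist1h2bj, whose starts lie 249 bases apart, Hist1h2bj averaged 165 scaled FPKM and Hist1h2ag 34.3.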
